A study of Homo sapiens with 16 samples.

Results

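The mRNA levels of 10 transcription factors that govern the B cell and plasma cell states, IRF4, PRDM1, PAX5, BCL6, BACH2, SPIB, POU2AF1, IKZF1, IKZF3 and RUNX1, were examined in a human multiple myeloma cell line. The members were found through the RefSeq accession of each array probe, and they are 10 of 20503 genes named on the array. Of these, 9 had at least 1 tested probe, as did 16398 genes in all.

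A B cell becomes an antibody-secreting plasma cell when IRF4 and PRDM1 (Blimp-1) switch off the B cell identity factors PAX5, BCL6, BACH2 and SPIB, which in turn hold the plasma cell programme back. POU2AF1 (OCA-B) is a coactivator of octamer-binding factors at immunoglobulin genes, IKZF1 (Ikaros) and IKZF3 (Aiolos) are zinc finger factors on which myeloma cells depend and which cereblon-binding drugs cause to be degraded, and RUNX1 is a DNA-binding partner of CBFB with roles throughout blood formation. IRF4 and the Ikaros factors are known to sustain growth of myeloma cells.

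The cells were LP-1, an established myeloma line that carries a TRAF3 lesion. They had received a lentiviral vector with cIAP2 (gene symbol BIRC3) and eGFP (LP-1-cIAP2-eGFP, here cIAP2 cells) or eGFP alone (LP-1-eGFP, here control cells), and were sorted for eGFP. Each line was 1 transduced and sorted population as far as the methods say, so a difference between the lines cannot be told apart from a difference between these populations. Both lines were untreated or exposed to 10 nM bortezomib, a proteasome inhibitor, for 6 h or 24 h. The 8 combinations were each measured on 2 biological replicates, on 16 single-colour Agilent arrays in all. The study asked how cIAP2 changes the response to bortezomib.

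Values are quantile-normalized log2 signals, and a change was called at a Benjamini-Hochberg adjusted p under 0.05 in limma, fitted on all tested probes. A probe is called detected where the scanner software marks it well above background. BIRC3 itself gave a mean of 12.57 in cIAP2 cells and 13.73 in control cells, a difference of -1.16 (SE 0.07, limma adjusted p = 7.42e-06). By the study's methods this probe reads the cell's own transcript and not the vector's, so it does not check the labels.

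The plasma cell label was checked against marker genes. Of 7 plasma cell markers, 6 were detected on all 16 arrays, with a mean of 16.97 for XBP1, and SLAMF7 was detected on 13. Among mature B cell markers CR2 was detected on 12 arrays, FCER2 on 9, CD22 on 1 and MS4A1, which encodes CD20, on none. No T cell marker of 5, no myeloid marker of 4 measured and no stromal marker of 5 was detected on every array. The T cell markers were detected on 6 to 15 arrays each, the myeloid ones on 0 to 13 and the stromal ones on 0 to 10. At 24 h of bortezomib none of the 5 T cell markers passed the test, and of the tested others 1 of 2 myeloid, 1 of 2 stromal and 1 of 3 erythroid markers were lower. Between the lines CD3D of the T cell markers (-1.14, limma adjusted p = 0.046) and ITGAM of the myeloid markers (-1.22, limma adjusted p = 0.00189) were lower in cIAP2 cells. HBB, 1 of 3 erythroid markers tested, was higher (2.30, limma adjusted p = 2.61e-05). CD3D was detected on 12 arrays, ITGAM on 10 and HBB on 5, so the sizes of these differences are not measured folds. The part of these genes in the results below was not tested. The array of replicate 1 of cIAP2 cells after 24 h of bortezomib, called the dim array here, stood apart, with a median log2 signal of 3.18 before normalization and 35.5% of spots detected, against 5.73 to 6.64 and 49.0% to 71.1% on the other 15. The 24 h responses of cIAP2 cells that passed are therefore also given without it, which leaves 1 treated array there, taken to vary like the other conditions. Of the 8 arrays of cIAP2 cells 6 lay on slide 1 and 2 on slide 2, and of the 8 of control cells 2 lay on slide 1 and 6 on slide 2, so values with the slide as a block are given where they change a call. Both arrays of cIAP2 cells at 24 h of bortezomib lay on slide 1. At 6 h of bortezomib both arrays of cIAP2 cells lay on slide 1 and both of control cells on slide 2. A line difference in that condition cannot be told apart from a difference between the slides.

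Most of the tested members changed with 24 h of bortezomib. Averaged over both lines, BCL6 and RUNX1 rose and IRF4, PRDM1, SPIB and IKZF3 fell, 6 of 9 tested members, while 34.8% of all probes passed the same test (15.1% higher and 19.7% lower), and 44.2% of genes did when each was read by its reported probe. BACH2, POU2AF1 and IKZF1 did not pass. With array weights the 24 h responses of IRF4, PRDM1, BCL6, POU2AF1 and IKZF3 in cIAP2 cells alone no longer passed. Between the lines, averaged over treatment and time, BCL6, SPIB, IKZF1 and RUNX1 were lower and POU2AF1 was higher in cIAP2 cells, 5 of 9, where 16.1% of all probes passed (6.26% higher and 9.84% lower) and 21.8% of genes. All 5 passed without the dim array as well. BCL6 met the filter for testing only through control cells, where it was high, so its place among the 5 follows in part from that filter. In bulk RNA, fewer cells of a kind and less RNA per cell cannot be told apart.

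**Figure D1:**
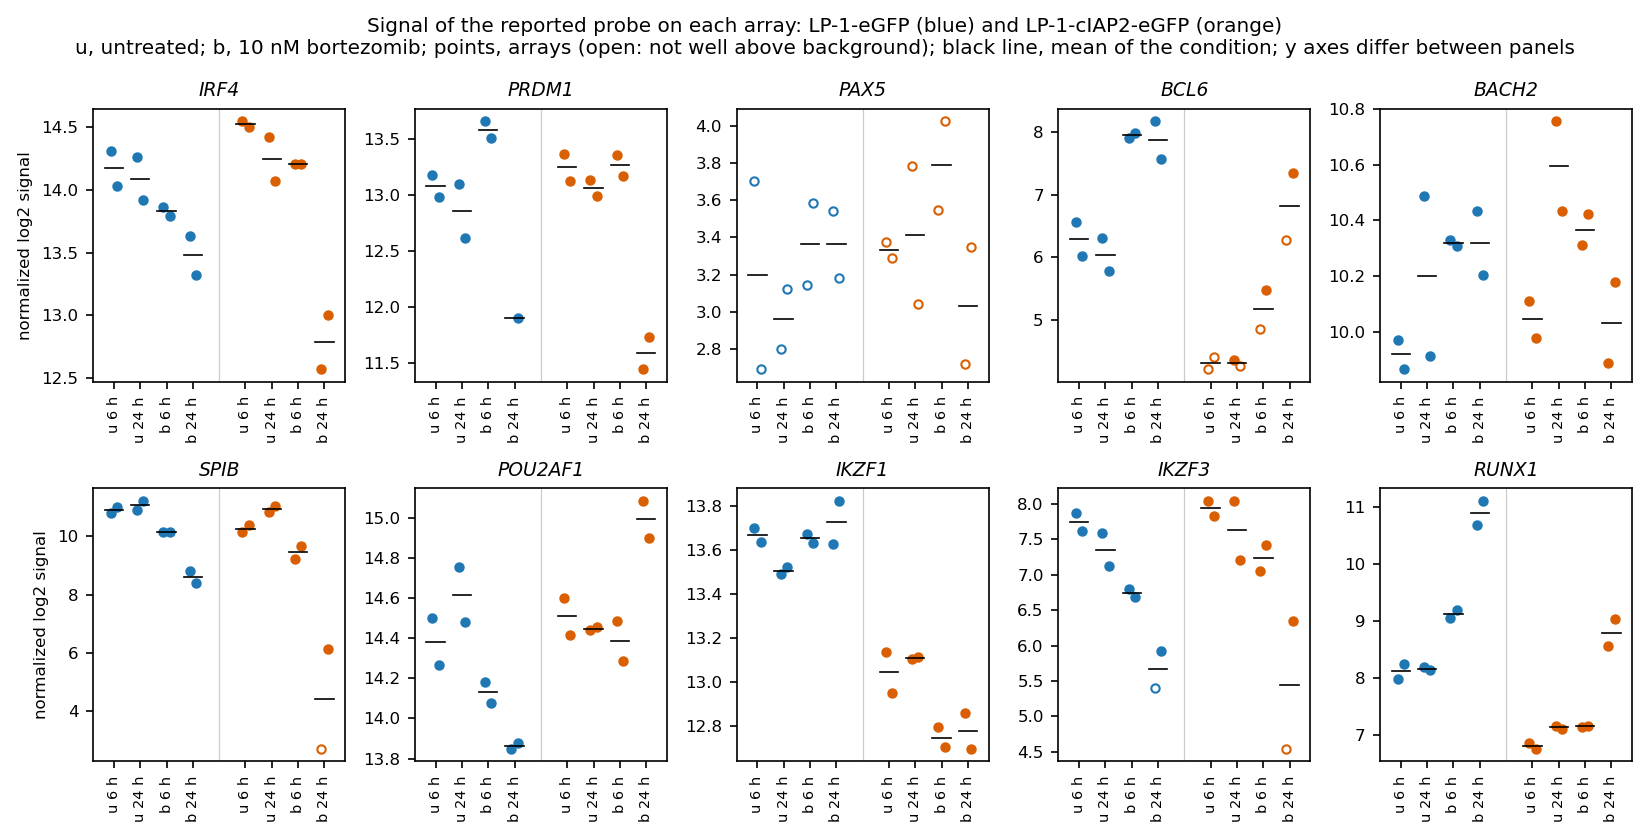
Quantile-normalized log2 signal (vertical axes) of the reported probe of each of the 10 members in the 8 conditions, 1 point per array, with open points where the probe was not well above background. RUNX1 lies between 10.69 and 11.11 in control cells after 24 h of bortezomib, above all other conditions, and PAX5 is open throughout.

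Promoter sequence is shown for SPIB, the member with the largest fall at 24 h of bortezomib, and for BCL6 and RUNX1, the members that rose. RefSeq (GRCh38.p14) windows from 250 bases before to 50 bases after a transcript start were at hand for 8 of the 10 members, with 12 windows in all, and none for POU2AF1 or IKZF3. Capitals mark the motif matches, which were an NF-kB match in SPIB (chr19:50418688-50418987, plus strand) at bases -197 to -188, on both strands, and a RUNX match in the second BCL6 window (chr3:187736452-187736751, minus strand) at bases -31 to -26. The RUNX1 window (chr21:34888650-34888949, minus strand) had none, nor had the other BCL6 window.
SPIB: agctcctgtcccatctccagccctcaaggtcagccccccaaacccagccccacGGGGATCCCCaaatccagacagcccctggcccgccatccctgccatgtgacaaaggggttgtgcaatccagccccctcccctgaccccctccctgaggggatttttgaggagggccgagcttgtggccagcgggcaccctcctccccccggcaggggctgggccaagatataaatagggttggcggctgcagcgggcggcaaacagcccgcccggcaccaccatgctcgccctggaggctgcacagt
BCL6: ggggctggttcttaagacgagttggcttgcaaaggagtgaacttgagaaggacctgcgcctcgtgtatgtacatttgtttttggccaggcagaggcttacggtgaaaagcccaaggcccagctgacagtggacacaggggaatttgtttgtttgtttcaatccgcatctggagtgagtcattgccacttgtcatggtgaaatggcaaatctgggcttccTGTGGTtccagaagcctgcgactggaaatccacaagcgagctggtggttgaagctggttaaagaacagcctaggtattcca
RUNX1: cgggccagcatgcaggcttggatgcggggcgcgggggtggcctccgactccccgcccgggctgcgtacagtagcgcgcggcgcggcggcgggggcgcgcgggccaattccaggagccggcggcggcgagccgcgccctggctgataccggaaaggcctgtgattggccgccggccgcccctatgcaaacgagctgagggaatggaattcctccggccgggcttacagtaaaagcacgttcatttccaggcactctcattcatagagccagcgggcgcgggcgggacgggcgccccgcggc
Both strands of each window were searched for 6 motifs. The first 5 were NF-kB, the octamer ATGCAAAT, an interferon response core (GAAA, 2 free bases, GAAA), an ETS and IRF composite (GGAA, 2 free bases, GAAA) and a heat shock element (GAA, TTC and GAA, each 2 free bases apart), and the RUNX letters TGTGGT were added after the windows had been read. Of 35116 windows of this length, 5.91% held the NF-kB motif, 1.77% the octamer, 3.57% the interferon core, 2.82% the composite, 0.49% the heat shock element and 13.1% the RUNX letters. The remaining match among the members was a RUNX match on the minus strand of an IKZF1 window at bases -144 to -139. A match is a description of the letters and not a binding site.

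IRF4, the factor that drives plasma cell differentiation and on which myeloma cells depend, fell at 24 h. In control cells its signals were 14.31 and 14.03 untreated at 6 h and 14.26 and 13.92 at 24 h, and with bortezomib 13.86 and 13.79 at 6 h and 13.64 and 13.32 at 24 h. The cIAP2 cells gave 14.55 and 14.51 untreated at 6 h and 14.43 and 14.07 at 24 h, and with bortezomib 14.21 on both arrays at 6 h and 12.57 and 13.00 at 24 h. At 24 h the treated and untreated arrays did not overlap in either line. In control cells that held for IKZF1 as well, whose response did not pass. With 2 arrays on a side such a separation carries little weight, and its share over all probes was not counted. IRF4 fell 2.75-fold in cIAP2 cells (log2 difference -1.46, SE 0.21, limma adjusted p = 0.000699), where 28.6% of all probes passed the test, 11.1% higher and 17.5% lower. In control cells the difference was -0.61 (SE 0.21, limma adjusted p = 0.0681) and did not pass, and 21.0% of probes did, 9.81% higher and 11.2% lower. That difference in control cells passed under 5 of 25 alternatives. These were the 75th percentile scale, probes detected on all arrays, averaged probes, and leaving out either treated cIAP2 array at 24 h. Averaged over the lines the IRF4 response was -1.04 (SE 0.15, limma adjusted p = 0.000399). Without the dim array the IRF4 response was -1.25 in cIAP2 cells (limma adjusted p = 0.00306), and the one in control cells then passed with a limma adjusted p of 0.0292. The difference between the responses of IRF4 was -0.85 (limma adjusted p = 0.53), and -0.64 without the dim array, and passed in neither fit. Over the alternatives it ran from -1.58 to -0.64. It passed without the replicate 2 of that condition (-1.07, limma adjusted p = 0.023), which leaves the dim array as the only treated array. IRF4 did not differ detectably between the lines (0.05, 95% interval -0.18 to 0.28).

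PRDM1, the repressor that shuts down the B cell programme in plasma cells, moved the same way as IRF4 at 24 h. Its signals in control cells were 13.18 and 12.98 untreated at 6 h, 13.09 and 12.61 untreated at 24 h, 13.66 and 13.51 after 6 h of bortezomib, and 11.90 in the replicate 2 of 24 h, the spot of the replicate 1 having been left out because the scanner software marked it as an outlier. Those in cIAP2 cells were 13.37 and 13.12 untreated at 6 h, 13.13 and 12.99 untreated at 24 h, 13.35 and 13.17 after 6 h of bortezomib, and 11.44 and 11.73 after 24 h. All 3 treated arrays at 24 h lay below every other array. PRDM1 fell 2.78-fold in cIAP2 cells (-1.47, SE 0.20, limma adjusted p = 0.000872), and without the dim array by 1.33 on the log2 scale (limma adjusted p = 0.00393). In control cells it was 1.93-fold lower (-0.95, SE 0.25, limma adjusted p = 0.0263), a value that rests on 1 treated array, taken to vary like the other conditions. That call was lost with normexp background correction (limma adjusted p = 0.0788), on the authors' normalized values (-0.55, limma adjusted p = 0.209), with no filter on dim probes (limma adjusted p = 0.0634), with the slide as a block (limma adjusted p = 0.0752) and without the replicate 1 of untreated control cells at 24 h (-0.71, limma adjusted p = 0.0983). A second PRDM1 probe, detected on all 16 arrays, did not pass in control cells (-0.48, limma adjusted p = 0.313), in cIAP2 cells (-0.59, limma adjusted p = 0.15) or averaged over the lines (-0.54, limma adjusted p = 0.0665).

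PAX5, the factor that commits cells to the B lineage, was not detected on any of the 16 arrays, with signals of 2.69 to 4.02, and was not tested. BCL6, the repressor of germinal centre B cells, was lower in cIAP2 cells and rose with bortezomib. Its signals in control cells were 6.56 and 6.02 untreated at 6 h, 6.31 and 5.78 untreated at 24 h, 7.90 and 7.99 after 6 h of bortezomib, and 8.17 and 7.57 after 24 h. Signals in cIAP2 cells were 4.21 and 4.41 untreated at 6 h, 4.36 and 4.27 untreated at 24 h, 4.85 and 5.48 after 6 h of bortezomib, and 6.28 and 7.35 after 24 h, and of these 8 only 3, 1 in each condition other than untreated 6 h, were detected. The lines did not overlap in any condition, each with 2 arrays a line, and the share of all probes of which this is true was not counted. BCL6 gave -1.88 for cIAP2 against control cells over all conditions (SE 0.19, limma adjusted p = 0.000117). It was tested because both arrays of each condition of control cells detected it, which no condition of cIAP2 cells did, and with no filter on dim probes the limma adjusted p was 0.000244. The difference passed also with the slide as a block (limma adjusted p = 0.00197), and was -1.93 within slide 1 (limma adjusted p = 0.432) and -1.94 within slide 2 (limma adjusted p = 0.0124). At 6 h without drug, where no array of that line detected it, the bound was at least 2.18-fold lower (limma adjusted p = 0.0213). The bound sets the mean of control cells against the lowest signal among detected probes of each undetected array. The other line differences of BCL6 set control cells against signals of which 5 of 8 were not above background, so their size is not a measured fold. With normexp background correction the difference over all conditions was -0.86 (limma adjusted p = 6.27e-05). With bortezomib BCL6 rose at 24 h in control cells (1.83, SE 0.38, limma adjusted p = 0.00685), and in cIAP2 cells it did so as well (2.50, SE 0.38, limma adjusted p = 0.00098, and 3.04 without the dim array, limma adjusted p = 0.000449). In cIAP2 cells 1 of 2 untreated and 1 of 2 treated arrays at 24 h detected BCL6, so the size of that response is not a measured fold either. With normexp background correction the rise of BCL6 at 24 h was 1.05 in control cells and 1.21 in cIAP2 cells, and the response at 6 h averaged over the lines 0.68, all called. At 6 h the BCL6 response averaged over the lines was 1.26 (SE 0.27, limma adjusted p = 0.0241), where 5.93% of all probes passed, 3.19% higher and 2.74% lower. Neither line passed alone at 6 h (1.65, limma adjusted p = 0.0634 in control cells and 0.86, limma adjusted p = 0.46 in cIAP2 cells), and the untreated signals of cIAP2 cells were not above background. The BCL6 response in control cells at 6 h passed without either treated array of cIAP2 cells at 24 h, the dim array among them (limma adjusted p = 0.0155 for each), with normexp background correction (1.08, limma adjusted p = 0.0132), with array weights (limma adjusted p = 0.000768) and with averaged probes (limma adjusted p = 0.0346). The rise at 24 h in control cells no longer passed without the replicate 2 of untreated control cells at 24 h (1.56, limma adjusted p = 0.057) or the replicate 1 of treated ones (1.53, limma adjusted p = 0.0631), and the call at 6 h was lost on leaving out any array at 6 h except the replicate 1 of treated cIAP2 cells (1.10 to 1.39) and with no filter on dim probes (limma adjusted p = 0.0513).

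BACH2, which delays plasma cell differentiation, was detected on all 16 arrays, between 9.87 and 10.76, and passed no test with the processing described above. Its signals after 24 h of bortezomib were 10.43 and 10.20 in control cells and 9.89 and 10.18 in cIAP2 cells, against 10.49 and 9.91, and 10.76 and 10.43, untreated. The difference between the lines was 0.07 (95% interval -0.16 to 0.31) and the response at 24 h averaged over the lines -0.22 (95% interval -0.55 to 0.11). In cIAP2 cells the response of BACH2 was -0.56 (limma adjusted p = 0.0723). It passed on the scale of the 75th percentile (-0.67, limma adjusted p = 0.0443) and among probes detected on all arrays (limma adjusted p = 0.0283), and also when the replicate 1 or 2 of untreated control cells at 24 h was left out (limma adjusted p = 0.0375 for each) or the replicate 2 of treated cIAP2 cells at 24 h (-0.71, limma adjusted p = 0.034). With array weights BACH2 passed at 6 h in control cells (0.40, limma adjusted p = 0.0498) and averaged over the lines (0.36, limma adjusted p = 0.0323). A second BACH2 probe, detected on 15 arrays, gave 0.37 in cIAP2 cells at 24 h (limma adjusted p = 0.505) and 0.30 averaged over the lines (limma adjusted p = 0.449), the opposite sign to the first.

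SPIB, an ETS factor of the B cell programme, fell more at 24 h of bortezomib than any other member tested. Its signals in control cells were 10.82 and 11.02 untreated at 6 h, 10.90 and 11.24 untreated at 24 h, 10.15 and 10.16 after 6 h of bortezomib, and 8.81 and 8.41 after 24 h. The cIAP2 cells gave 10.14 and 10.39 untreated at 6 h, 10.86 and 11.04 untreated at 24 h, 9.24 and 9.68 after 6 h of bortezomib, and 2.70 and 6.14 after 24 h. The value of 2.70 is on the dim array and was not above background, so SPIB differences that include it are not measured folds. SPIB fell by 4.49 averaged over the lines (SE 0.57, limma adjusted p = 0.000197), and without the dim array it fell by 3.64. In cIAP2 cells the response was -6.53 (SE 0.81, limma adjusted p = 0.000315), -4.81 without the dim array (limma adjusted p = 1.35e-05) and -4.17 with normexp background correction (limma adjusted p = 1.6e-06). In control cells it was -2.46 (SE 0.81, limma adjusted p = 0.0599), which passed without the dim array (limma adjusted p = 5.25e-05). The difference between these responses was -4.08 (limma adjusted p = 0.409) and did not pass. Over the alternatives it ran from -5.80 to -1.87. It passed only with 1 of the 2 treated arrays of cIAP2 cells at 24 h left out. These fits gave -2.36 without the dim array and -5.80 with it as the only treated one.

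SPIB was also lower in cIAP2 cells than in control cells over all conditions (-1.42, SE 0.41, limma adjusted p = 0.041). This call depended on the processing. With the slide as a block the SPIB difference was -1.44 (limma adjusted p = 0.147), within slide 1 it was -1.36 and within slide 2 -0.33, neither called, and it held under 8 of 29 alternatives, although without the dim array it was -0.99 (limma adjusted p = 0.000296). Leaving out any of the 14 arrays other than those of treated cIAP2 cells at 24 h also ended it (-1.47 to -1.36, limma adjusted p = 0.0643 to 0.0908). In untreated cells alone it was -0.39 (limma adjusted p = 0.843). With normexp background correction the SPIB difference was -0.82 over all conditions and -1.30 in treated cells, both called. In treated cells the SPIB difference was -2.45 (limma adjusted p = 0.0264), and -1.59 without the dim array (limma adjusted p = 0.000493). The call in treated cells was lost with the slide as a block (-2.48, limma adjusted p = 0.135) and on leaving out any of the 6 other treated arrays (limma adjusted p = 0.0575 to 0.0919). At 24 h of drug it was -4.19 (limma adjusted p = 0.0176), and -2.47 without the dim array (limma adjusted p = 0.00122).

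POU2AF1, the octamer coactivator, was detected on all 16 arrays and responded to bortezomib at 24 h with opposite signs in the lines. Its signals in control cells were 14.50 and 14.27 untreated at 6 h, 14.76 and 14.48 untreated at 24 h, 14.18 and 14.08 after 6 h of bortezomib, and 13.85 and 13.88 after 24 h. Signals in cIAP2 cells were 14.60 and 14.42 untreated at 6 h, 14.44 and 14.46 untreated at 24 h, 14.49 and 14.29 after 6 h of bortezomib, and 15.09 and 14.90 after 24 h. After 24 h of drug the lines did not overlap, which held for every tested member but IKZF3. POU2AF1 fell in control cells (-0.75, SE 0.16, limma adjusted p = 0.00721), whereas it rose in cIAP2 cells (0.55, SE 0.16, limma adjusted p = 0.0278). The difference between the responses was 1.30 (95% interval 0.80 to 1.80, limma adjusted p = 0.11), which did not pass where 0.0712% of all probes did. It was 1.21 (limma adjusted p = 0.104) without the dim array and 1.39 (limma adjusted p = 0.00231) with the dim array as the only treated one, and at 1.30 it passed among probes detected on all arrays (limma adjusted p = 0.02) and with averaged probes (limma adjusted p = 0.0478). The rise was not called without the dim array (0.45, limma adjusted p = 0.0867), without either untreated array of cIAP2 cells at 24 h (0.54 and 0.55), with the slide as a block (limma adjusted p = 0.0552), with no filter on dim probes (limma adjusted p = 0.0722), with array weights (limma adjusted p = 0.396) or on the scale of the 75th percentile (0.23, limma adjusted p = 0.336). That scaling moved the median of all probes in this comparison from -0.16 to 0.21. The fall was -0.62 (limma adjusted p = 0.0507) without the replicate 1 of untreated control cells at 24 h. Averaged over all conditions POU2AF1 was higher in cIAP2 cells by 0.34 (SE 0.08, limma adjusted p = 0.0166), a call lost with the slide as a block (0.35, limma adjusted p = 0.0768), with array weights (limma adjusted p = 0.0589), with no filter on dim probes (limma adjusted p = 0.051) and without the replicate 2 of untreated control cells at 6 h (0.31, limma adjusted p = 0.0502). The difference was 0.58 within slide 1 and -0.15 within slide 2. The difference between the lines in treated cells was 0.69 (SE 0.11, limma adjusted p = 0.00407), where 9.36% of all probes passed, a call lost with array weights (limma adjusted p = 0.0728), and in untreated cells -0.02 (limma adjusted p = 0.969), where 7.75% did.

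**Figure D2:**
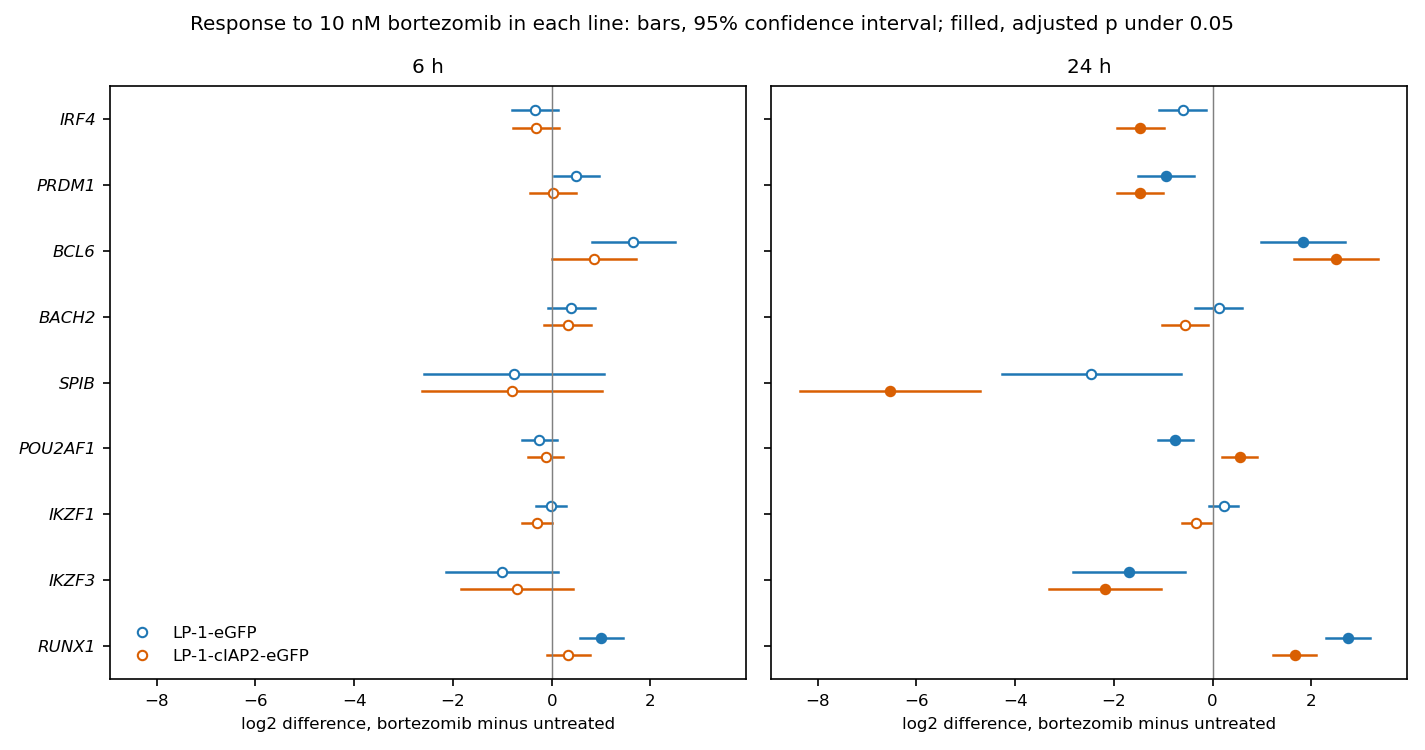
Log2 difference of bortezomib-treated from untreated cells at 6 h and at 24 h (horizontal axes) for each tested member in each line, with bars for the 95% interval of the limma fit and filled points where the test passed. At 24 h RUNX1 and BCL6 lie above 0 in both lines, at 2.74 and 1.83 in control cells, and POU2AF1 lies at -0.75 in control cells and 0.55 in cIAP2 cells.

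IKZF1 was lower in cIAP2 cells on every array. Its mean was 12.92 ± 0.18 (SD, n = 8) in cIAP2 cells and 13.64 ± 0.10 (SD, n = 8) in control cells. The arrays of control cells lay between 13.49 and 13.83 and those of cIAP2 cells between 12.70 and 13.14, without overlap, and the difference was -0.72 (SE 0.07, limma adjusted p = 6.78e-05). It passed in untreated cells (-0.51, limma adjusted p = 0.00887), though not on the scale of the 75th percentile (-0.48, limma adjusted p = 0.0678), and in treated cells (-0.93, limma adjusted p = 0.000304). With the slide as a block the IKZF1 difference was -0.71 (limma adjusted p = 0.00143). It was -0.70 within slide 1 and -0.53 within slide 2, neither called. No response of IKZF1 to bortezomib passed with the processing described above. At 24 h it was -0.05 averaged over the lines (95% interval -0.27 to 0.16), 0.22 in control cells (limma adjusted p = 0.318) and -0.33 in cIAP2 cells (limma adjusted p = 0.0928). The response in cIAP2 cells passed on the scale of the 75th percentile (-0.59, limma adjusted p = 0.0495), among probes detected on all arrays (limma adjusted p = 0.0214) and with averaged probes (limma adjusted p = 0.0462).

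IKZF3, its relative, fell with 24 h of bortezomib. Signals in control cells were 7.87 and 7.62 untreated at 6 h, 7.58 and 7.12 untreated at 24 h, 6.79 and 6.69 after 6 h of bortezomib, and 5.40 and 5.92 after 24 h. Those in cIAP2 cells were 8.05 and 7.83 untreated at 6 h, 8.05 and 7.21 untreated at 24 h, 7.05 and 7.42 after 6 h of bortezomib, and 4.55 and 6.35 after 24 h. The values of 5.40 and 4.55 were not above background, and the 4 arrays at 24 h of drug were the lowest. With 1 of 2 treated arrays of each line not above background at 24 h, the sizes of the IKZF3 responses that include them are not measured folds. IKZF3 fell by 1.93 averaged over the lines (SE 0.36, limma adjusted p = 0.00207), by 1.48 without the dim array, and by 0.95 with normexp background correction (limma adjusted p = 0.000373). That correction gave -0.96 in control cells and -0.95 in cIAP2 cells, and the scale of the 75th percentile -1.30 in cIAP2 cells, all called for IKZF3. Its fall in control cells alone (-1.69, limma adjusted p = 0.0405) was kept in 9 of 24 alternatives, and was lost with the slide as a block (limma adjusted p = 0.0748) and on leaving out any of the 12 arrays other than those of cIAP2 cells at 24 h (-1.95 to -1.43). That in cIAP2 cells (-2.18, limma adjusted p = 0.0102) was -1.27 without the dim array (limma adjusted p = 0.0337), and was lost without the replicate 1 of their untreated arrays at 24 h (-1.76, limma adjusted p = 0.0823). IKZF3 was not found to differ between the lines (0.19, 95% interval -0.38 to 0.76).

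RUNX1 rose by 2.20 at 24 h of bortezomib averaged over the lines (SE 0.14, limma adjusted p = 2.71e-06), and was lower in cIAP2 cells. It was also among the genes the study picked from these arrays, so that its values are not independent of that choice. Its signals in control cells were 7.98 and 8.25 untreated at 6 h, 8.19 and 8.13 untreated at 24 h, 9.05 and 9.19 after 6 h of bortezomib, and 10.69 and 11.11 after 24 h. In cIAP2 cells they were 6.86 and 6.76 untreated at 6 h, 7.16 and 7.11 untreated at 24 h, 7.14 and 7.16 after 6 h of bortezomib, and 8.56 and 9.03 after 24 h. In each condition every array of control cells lay above every array of cIAP2 cells, with 2 arrays a line, and the share of all probes with such a separation was not counted. RUNX1 was 3.03-fold lower in cIAP2 cells over all conditions (-1.60, SE 0.10, limma adjusted p = 5.03e-06), 2.24-fold lower in untreated cells (limma adjusted p = 0.00073, but -0.78 and 0.082 with normexp background correction) and 4.11-fold lower in treated cells (limma adjusted p = 2.52e-05). With the slide as a block the RUNX1 difference was again -1.60 (limma adjusted p = 0.00015). It was -1.99 within slide 1 and -1.02 within slide 2, neither called. At 24 h bortezomib raised RUNX1 by 2.74 in control cells (SE 0.20, limma adjusted p = 2.51e-05) and by 1.66 in cIAP2 cells (SE 0.20, limma adjusted p = 0.000239), and the difference between the responses was -1.08 (95% interval -1.70 to -0.46, limma adjusted p = 0.371). Without the dim array RUNX1 rose by 1.90 in cIAP2 cells (limma adjusted p = 0.000178) and the difference between the responses was -0.85 (limma adjusted p = 0.314), whereas with the dim array as the only treated one it was -1.32 (limma adjusted p = 0.00468). With the probes of RUNX1 averaged the rise at 24 h was 1.30 averaged over the lines (limma adjusted p = 2.03e-05), 1.64 in control cells and 0.96 in cIAP2 cells, all called. The rise in cIAP2 cells was 0.76 with normexp background correction and did not pass (limma adjusted p = 0.116).

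RUNX1 has other probes, which did not all give the same line difference. A second probe gave -1.78 (limma adjusted p = 5.26e-05), and a probe for another transcript gave 0.03 (limma adjusted p = 0.911). A further probe was detected on 4 arrays, all of control cells. It gave -1.10 (limma adjusted p = 0.0452), but met the filter for testing only through control cells at 6 h of bortezomib. That call therefore gives no fold and does not bear on the line difference. The remaining probe was detected on 1 array and not tested. At 24 h of bortezomib the first 2 of these probes gave 1.01 and 0.99 averaged over the lines. By line, the second RUNX1 probe gave 1.32 in control cells (limma adjusted p = 0.0146) and 0.70 in cIAP2 cells (limma adjusted p = 0.128), and the probe for another transcript 0.73 (limma adjusted p = 0.106) and 1.25 (limma adjusted p = 0.00941). The difference between the responses did not pass for either, at -0.62 (limma adjusted p = 0.639) and 0.51 (limma adjusted p = 0.649), the latter of opposite sign to the -1.08 of the reported probe.

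**Figure D3:**
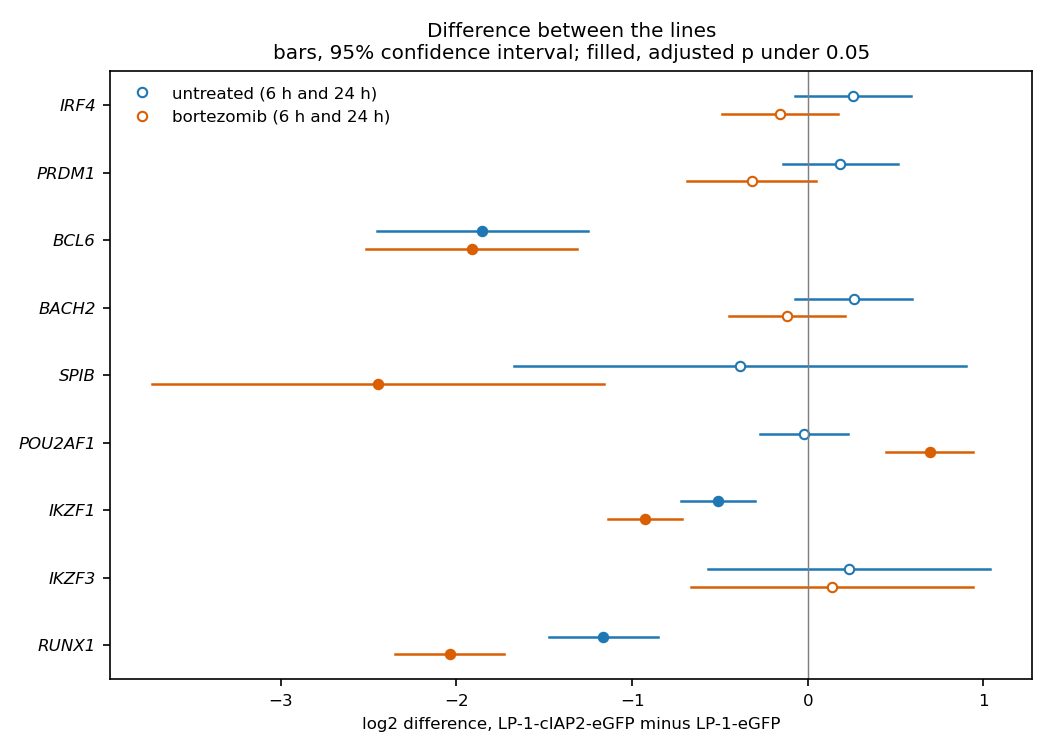
Log2 difference of cIAP2 cells from control cells (horizontal axis) for each tested member in untreated and in treated cells, with bars for the 95% interval of the limma fit and filled points where the test passed. BCL6, IKZF1 and RUNX1 lie below 0 in both, at -1.85, -0.51 and -1.16 in untreated cells, and POU2AF1 lies at 0.69 in treated cells.

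By condition, the lines differed in BCL6, IKZF1 and RUNX1 at 6 h without drug, where 3.09% of all probes passed, in BCL6 and RUNX1 at 24 h without drug, where 2.77% did, in BCL6, IKZF1 and RUNX1 at 6 h of bortezomib (3.31%), and in SPIB, IKZF1, RUNX1 and POU2AF1 at 24 h of bortezomib (5.92%). Those 4 also passed at 24 h of bortezomib without the dim array. The line differences by condition were not fitted with the slide as a block. At 6 h of bortezomib each line lay on a slide of its own, so line and slide cannot be told apart there. At 6 h bortezomib raised RUNX1 in control cells (1.00, SE 0.20, limma adjusted p = 0.0343), where 1.95% of probes passed, but the RUNX1 call was lost (0.87 to 1.14) on leaving out any of 10 arrays, those of control cells at 6 h and those of cIAP2 cells other than with 24 h of drug. It was also lost on the scale of the 75th percentile (limma adjusted p = 0.0545), with normexp background correction (0.83, limma adjusted p = 0.377), with no filter on dim probes (limma adjusted p = 0.0994) and in the fit blocked on slide (limma adjusted p = 0.0914). Averaged over the lines RUNX1 rose by 0.67 at 6 h (limma adjusted p = 0.0207), a call lost (0.61 to 0.71) on leaving out any of the arrays at 6 h except the replicate 2 of untreated control cells, with normexp background correction (0.47, limma adjusted p = 0.415) and with no filter on dim probes (limma adjusted p = 0.0576). No member passed at 6 h in cIAP2 cells, where 1.09% did. No member passed the test of a difference between the responses at 6 h, which 0.00297% of probes passed, or of a change with time in untreated cells, which 0.00890% passed. Under the study's stricter rule for the lines BCL6 and RUNX1 were kept, and 2.37% of all probes were. The rule was read as an adjusted p under 0.001 over all conditions with more than a 2-fold difference between the untreated lines. In untreated cIAP2 cells BCL6 was detected on no array at 6 h and on 1 of 2 at 24 h, so its size there is not a measured fold. With normexp background correction the untreated difference of RUNX1 was -0.78, which is under 2-fold. The comparisons of the responses and of the lines share arrays, so their values are not independent of each other.

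**Figure D4:**
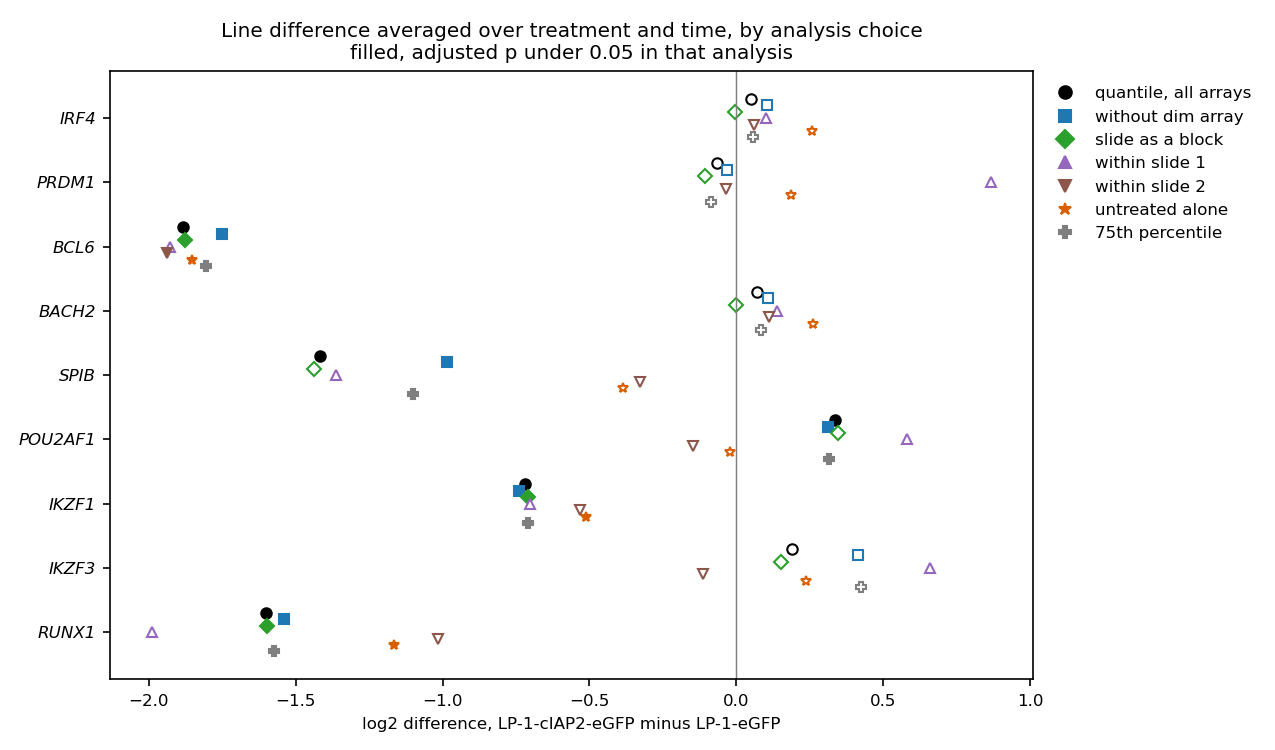
Log2 difference between the lines (horizontal axis) of the 9 tested members under 7 processing choices, with filled points where the test passed. RUNX1, BCL6 and IKZF1 stay below 0 throughout, and POU2AF1 lies at -0.15 within slide 2.

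Other genes of these programmes were followed in 4 lists. Of 22 other B lineage factors 21 were tested, and at 24 h of bortezomib 3 rose, 11 fell and 7 did not pass, with a median of -0.65 against -0.09 for all genes, of which 3150 rose and 4101 fell of 16398. The largest falls among them were ETS1 (-3.20, limma adjusted p = 5.47e-05), IKZF2, the Ikaros relative Helios (-3.04), KLF2 (-1.96) and TCF4 (-1.59). ETS1 was above background on 1 of the 4 treated arrays, so its fall is not a measured fold. Of the other RUNX genes RUNX2 rose by 0.96 and RUNX3 fell by 0.65. Between the lines 3 were higher and 1 lower in cIAP2 cells with a median of 0.16, the differences being 0.72 for ID3, 0.64 for EBF1, 0.61 for ELF1 and -0.74 for RUNX3. EBF1 was not above background on 1 of the 8 arrays of cIAP2 cells.

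Of 18 plasma cell genes, 2 rose, 10 fell and 6 did not pass at 24 h, with a median of -0.80, led by TXNDC5 (-2.61), TNFRSF13B (-2.58), SDC1, which encodes syndecan-1 (-2.46), and MZB1 (-2.01). Of the same 18, 8 were higher and 2 lower in cIAP2 cells than in control cells with a median of 0.21, with SLAMF7 higher by 5.79 (limma adjusted p = 2.35e-08), LAX1 by 2.78 and SDC1 by 1.42, where the median of all genes was -0.01 and 1482 were higher and 2085 lower of 16392. SLAMF7 was above background on all 8 arrays of cIAP2 cells and on 5 of the 8 of control cells, so its difference is not a measured fold. Of 15 tested mature B cell and germinal centre genes, 3 rose and 5 fell at 24 h with a median of -0.30, among them CR2, CIITA, the activator of MHC class II genes (-4.09), and BLK (-3.41). CR2 was above background on none of the 4 treated arrays and all 4 untreated ones, and was at least 11.3-fold lower (limma adjusted p = 7.79e-06). CIITA and BLK were not above background on 1 of the 4 treated arrays, so the sizes of their differences, between the lines as well, are not measured folds. Between the lines 3 were higher and 2 lower with a median of 0.25. The largest differences were -1.92 for CIITA, 1.59 for BLK, 1.19 for MYBL1 (limma adjusted p = 0.000113) and -0.66 for CD40. MYBL1 was above background on all 16 arrays. CD40 was so on 7 of the 8 arrays of cIAP2 cells, so its difference is not a measured fold. Of 20 partners and cofactors of the members, 3 rose and 11 fell at 24 h with a median of -0.46. MAFF, a partner of BACH factors, rose by 3.79 and CBFB, the partner of RUNX factors, fell by 0.77. CRBN, which encodes cereblon, was higher by 0.47 in cIAP2 cells, the 1 partner that was higher there, while 2 were lower and the median was -0.06.

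**Figure D5:**
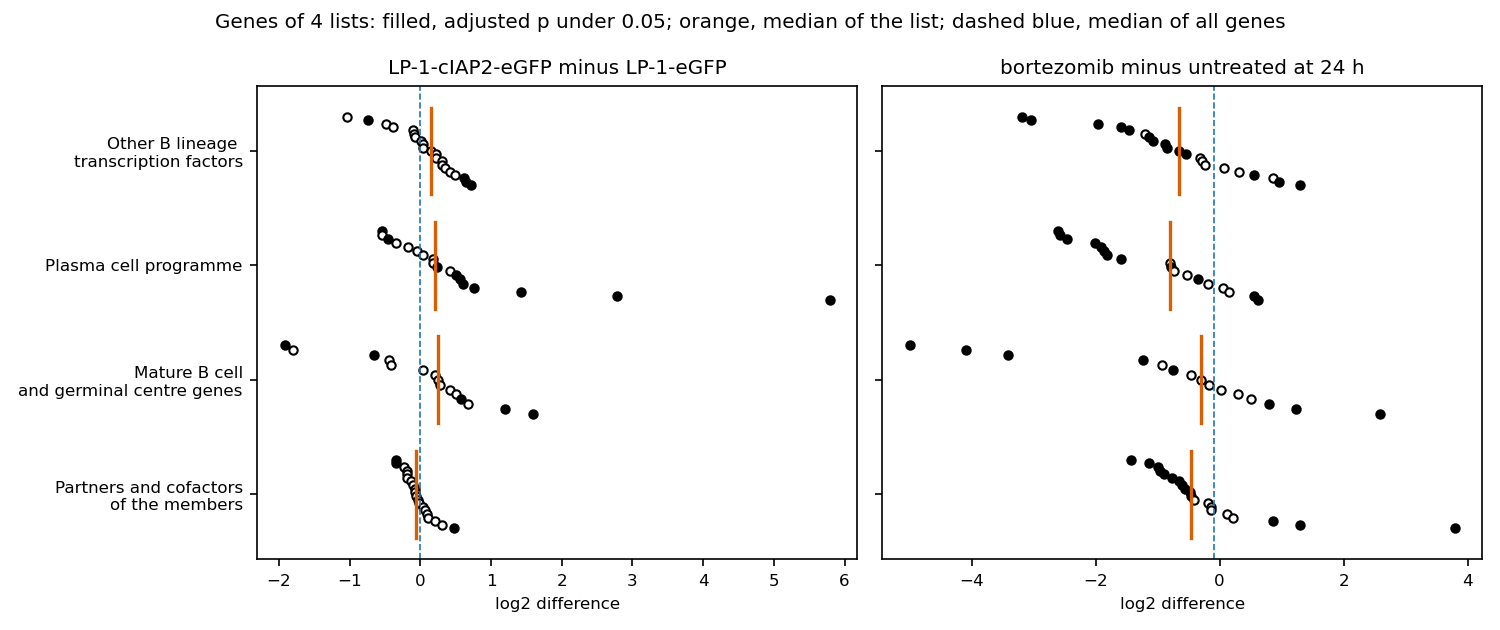
Log2 difference of each gene in the 4 lists (horizontal axis), for the line difference and the bortezomib response at 24 h averaged over the lines, with the median of each list. The medians of the response lie at -0.65, -0.80, -0.30 and -0.46, against -0.09 for all genes tested.

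The genes with the most similar pattern over the 16 arrays were sought for the 4 members that were detected on all arrays and passed at least 1 test, among 9685 genes. The arrays share line and treatment, so these Pearson correlations describe the arrays and carry no test. They were highest for RUNX1 with VASH2 (0.976), SPRTN (0.972) and SLC26A11 (0.9645), for IRF4 with MCRS1 (0.967), SOCS2 (0.956) and GID8 (0.9535), for IKZF1 with CARD19 (0.9535), ARHGAP27 (0.938) and SCRN1 (0.935), and for POU2AF1 with GABPA (0.898), PTPN22 (0.890) and YTHDF2 (0.870).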

How the data were processed

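RNA from 16 cultures of the 2 transduced lines was hybridised to single-colour Agilent arrays, 1 culture per array. The deposited intensity of each spot is the processed signal of Agilent Feature Extraction 10.7.3.1 per the file headers, which subtracts the background. A deposited table holds log2 values that the authors quantile normalized in GeneSpring. It proved centred per probe and served as an alternative. There were 0 unused value columns.

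Spots marked as outliers and control spots were left out, and the signals were quantile normalized. Testing was limited to the 33731 of 50599 gene probes that both arrays of some condition showed well above background. Probes were named through their RefSeq accession in a RefSeq gene table. 28174 matched (55.7%). The probe with the highest mean signal was reported for each gene. Group means of the 8 conditions were fitted in limma 3.58.1 (R 4.3.3), and p-values adjusted by Benjamini-Hochberg over all tested probes. With 2 arrays a condition the precision rests on the spread shared over conditions. The scripts were tested on simulated data.

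All members were named. Up to 4 called genes with the largest difference were named per list, and the 3 genes most like a member. Members and lists were chosen with earlier results of these data known. The alternatives were the 75th percentile, normexp, the authors' table, other probe filters, averaged probes, slide and replicate blocks, array weights, the study's rules and each array left out. The detection of some mature B cell and erythroid markers is not reported here.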

Additional observations from a re-analysis of the deposited data

Results flagged for a closer look

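The response of POU2AF1 to bortezomib at 24 h differed in direction between the lines. It fell in control cells (-0.75, limma adjusted p = 0.00721), where both treated arrays lay below both untreated ones, and rose in cIAP2 cells (0.55, limma adjusted p = 0.0278), where both treated arrays lay above both untreated ones. The rise was not called without the dim array (0.45, limma adjusted p = 0.0867), without either untreated array of that comparison (limma adjusted p = 0.11 and 0.104), in the fit blocked on slide (limma adjusted p = 0.0552), on the scale of the 75th percentile (0.23, limma adjusted p = 0.336), with array weights (limma adjusted p = 0.396) or with no filter on dim probes (limma adjusted p = 0.0722). The difference of the responses was 1.30, and its own test did not pass (limma adjusted p = 0.11). Without the dim array it was 1.21 (limma adjusted p = 0.104). It passed among probes detected on all arrays (limma adjusted p = 0.02), with averaged probes (limma adjusted p = 0.0478) and with the dim array as the only treated one of cIAP2 cells at 24 h (1.39, limma adjusted p = 0.00231).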

How the results depend on the processing

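All 6 calls of the bortezomib response at 24 h averaged over the lines were kept in every alternative in which the member was tested. Of called member results 742 stayed past the threshold in the same direction, 112 no longer passed and 2 changed sign without passing. A further 44 passed only under an alternative. Both sign changes were POU2AF1 between the lines, -0.15 within slide 2 and -0.022 in untreated cells alone, and neither value passed its test. With 5 members called between the lines, 2 at 6 h, 5 in control cells and 7 in cIAP2 cells at 24 h, 6 averaged and 0 for the difference of responses, no probe filter gave 3 between the lines, 0 at 6 h and 3 in control cells. Only probes detected on all arrays gave 3 between the lines, 1 at 6 h, 3 in control cells, 2 averaged and 1 for the difference of responses. The slide block gave 3 between the lines (3104 probes, against 5428) and 3 in control cells. Array weights gave 5 at 6 h, 2 in cIAP2 cells at 24 h and 7835 probes averaged, against 11753. Averaged probes gave 7547 and, for the difference of responses, 1. Between the lines the study's rules gave 2 members each (799 and 1194 probes), slide 1 alone 0 (23), slide 2 alone 1 (754) and untreated cells alone 3. Leaving out 1 array gave 3 to 5 between the lines (4043 to 12301 probes), 0 to 4 at 6 h, 2 to 7 in control cells, 5 to 8 in cIAP2 cells, 5 to 6 averaged (9644 to 18040 probes) and 0 to 4 for the difference of responses. The causes were not tested. With 2 arrays a condition and signals near background of BCL6 in untreated cIAP2 cells and of IKZF3 and SPIB after drug, small differences are beyond these arrays.

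Same-numbered replicates correlated at -0.118 to 0.487 over 28 pairs of conditions, 22 of them above 0.1 but not all, so the numbers were not taken to pair the arrays. With a replicate block IKZF3 in control cells at 24 h (-1.69) no longer passed (limma adjusted p = 0.051).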
